A study of Mus musculus with 16 samples.

Results

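Induced pluripotent stem cells (iPSC) of blood origin were compared with embryonic stem cells (ESC) on 6 of the 16 arrays of a mouse expression series, chosen by their labels: 4 iPSC arrays and 2 ESC arrays. The 4 iPSC arrays were 2 biological replicates of iPSC made from the blood system of young mice (young origin) and 2 of iPSC made from that of aged mice (aged origin). The 2 ESC arrays were 2 commercial lines, one from Open Biosystems and the other from Primogenix, with 1 array each. All 6 came from wild-type cells of the C57Bl6 strain, grown on feeder layers of mouse embryonic fibroblasts (MEF) under the usual conditions for ESC and then sorted, and cRNA was made from 10000 cells per array. The labels give no age of the donors, no reprogramming method and no clone number for the iPSC, and no sex or passage for any line. The other 10 arrays were haematopoietic stem cells (HSC), taken from steady-state mice aged 3 to 4 or 21 to 24 months and from recipients of young or aged marrow. They served here only to give the level of a gene in blood stem cells.

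Reprogramming resets a differentiated cell to a state close to that of the early embryo, in which a network built around Pou5f1, Sox2 and Nanog keeps the cell self-renewing. Imprinted genes are a known weak point of this reset. They are expressed from the maternal or the paternal copy only, as marked by DNA methylation laid down in the germ line, and both a lost mark and a gained mark change the dose. The Dlk1-Dio3 cluster on mouse chromosome 12, whose maternal copy makes the long noncoding RNAs Meg3, Rian and Mirg, is known to be silenced in some mouse iPSC lines and active in others.

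The cells matched their label. All 8 pluripotency markers examined (Pou5f1, Sox2, Nanog, Esrrb, Zfp42, Dppa5a, Utf1 and Tdgf1) were above the array's 25th percentile on all 6 arrays, and their summed intensity was 19913 to 20767 on the iPSC arrays, 21769 to 21956 on the ESC arrays and 149 to 375 on the HSC arrays. The summed intensity of 8 blood markers was 1445 to 1924 in iPSC, 1567 to 1751 in ESC and 16475 to 22684 in HSC. On the cultured arrays most of this sum came from Laptm5 (10.13 to 10.61 log2), and the larger part of the pluripotency sum from Dppa5a. Ptprc, the pan-leukocyte surface protein CD45, lay between 3.17 and 3.61 log2 on the 6 cultured arrays and between 11.10 and 12.57 on the HSC arrays. The summed intensity of 9 fibroblast markers was 437 and 798 in young-origin iPSC, 446 and 458 in aged-origin iPSC, and 695 and 740 in the Open Biosystems and Primogenix lines. The second young-origin array was thus above both ESC lines and the other 3 iPSC arrays were below them. Correlations between arrays across the tested genes ran from 0.9876 to 0.9937, and 39 to 72 genes differed by more than 2-fold between an iPSC and an ESC array, against 41 between the ESC lines and 18 within each pair of iPSC replicates. In such bulk samples, fewer cells that express a gene and less RNA per cell cannot be told apart.

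Few genes were called between iPSC and ESC, and the largest of the called differences were lower levels of imprinted genes in iPSC. On log2 intensities, 14 of 13638 genes were called in iPSC against ESC at an adjusted p under 0.05 (limma with Benjamini-Hochberg adjustment), which is 0.103% of the genes tested. Of these, 6 were higher in iPSC (0.044%) and 8 were lower (0.0587%). The lowest were Meg3, at a fold of 11.1 in favour of ESC, and Mcts2, at 10.8, followed by Zdbf2 and Cyb5r1 at 4.00 and 3.95. The highest were Rec114, Rhox5 and Il1r2, at 2.52-fold, 2.27-fold and 2.21-fold in favour of iPSC. At an unadjusted p under 0.05 there were 1738 genes, and in 3247 genes (23.8%) the 4 iPSC arrays did not overlap the 2 ESC arrays. The median difference over all genes tested was 0.0016 log2. The labels do not say how the iPSC replicates were derived, so the p-values weigh differences only against the scatter among these 6 arrays, and the ESC part of that scatter is the difference between the lines.

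**Figure D1:**
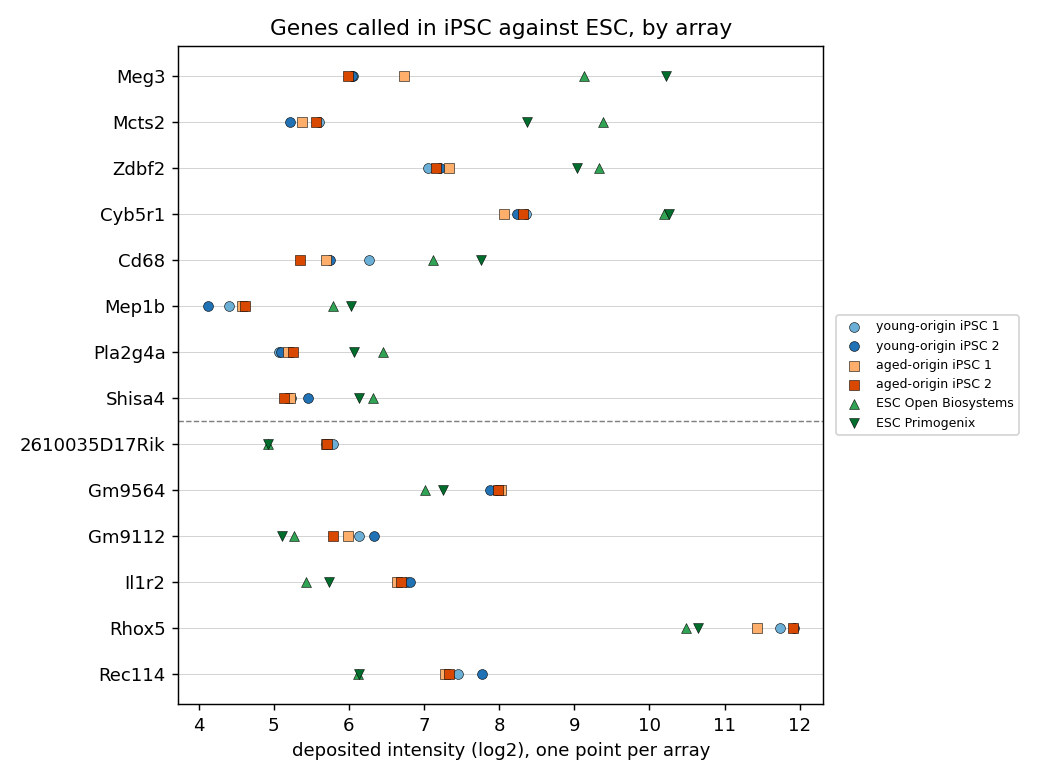
Log2 intensity (horizontal axis) of the 14 called genes on each of the 6 arrays, with 1 marker per array, circles for young-origin iPSC, squares for aged-origin iPSC and triangles for the ESC lines. Genes above the dashed line were lower in iPSC and genes below it were higher, and in each of the 14 the 4 iPSC arrays lie apart from both ESC arrays.

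The start regions of Meg3, Mcts2 and Zdbf2 are shown because these 3 imprinted genes are the first 3 of the called losses by size, and because imprints are carried by methylated CG pairs. Each line gives the 250 bases before a RefSeq transcript start (RefSeq, GRCm38.p6, plus strand, 5′ to 3′), at chr12:109540746-109540995 for Meg3, chr2:152686898-152687147 for Mcts2, and chr1:63200108-63200357 and chr1:63273019-63273268 for the upstream and the downstream start of Zdbf2. Capitals mark TGCCGC, the hexamer bound in its methylated form by the imprint-keeping protein Zfp57, and TGACGTCA, the full cyclic AMP response element. Both were searched on both strands, so that TGCCGC on the minus strand reads GCGGCA.

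Meg3: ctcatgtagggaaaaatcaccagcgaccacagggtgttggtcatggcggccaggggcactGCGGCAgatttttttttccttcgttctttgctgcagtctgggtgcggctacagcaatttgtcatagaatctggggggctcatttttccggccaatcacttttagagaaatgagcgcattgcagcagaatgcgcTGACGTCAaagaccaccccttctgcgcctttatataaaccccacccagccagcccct
Mcts2: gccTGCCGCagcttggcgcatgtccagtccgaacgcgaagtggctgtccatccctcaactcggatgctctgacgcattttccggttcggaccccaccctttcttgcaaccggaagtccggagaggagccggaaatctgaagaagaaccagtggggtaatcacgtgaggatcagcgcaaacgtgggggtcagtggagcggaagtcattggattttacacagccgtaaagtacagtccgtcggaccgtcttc
Zdbf2 upstream start: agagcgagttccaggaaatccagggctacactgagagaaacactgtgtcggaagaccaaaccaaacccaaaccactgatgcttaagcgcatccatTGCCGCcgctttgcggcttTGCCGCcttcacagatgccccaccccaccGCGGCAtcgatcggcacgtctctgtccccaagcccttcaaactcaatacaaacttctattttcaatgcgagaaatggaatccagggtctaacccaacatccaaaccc
Zdbf2 downstream start: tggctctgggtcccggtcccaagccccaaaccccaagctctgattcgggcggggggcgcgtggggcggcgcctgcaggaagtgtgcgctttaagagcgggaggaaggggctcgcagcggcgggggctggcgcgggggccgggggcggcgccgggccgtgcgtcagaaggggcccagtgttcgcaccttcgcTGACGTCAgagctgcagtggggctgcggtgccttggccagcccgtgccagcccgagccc

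The Meg3 region held 1 TGCCGC, 1 TGACGTCA and 10 CG pairs. The Mcts2 region held 1 TGCCGC and 20 CG pairs. The upstream region of Zdbf2 held 3 TGCCGC and 13 CG pairs, and the downstream region held 1 TGACGTCA and 26 CG pairs. The region before the start of Rian, read in the same way, held 0 TGCCGC, 0 TGACGTCA and 0 CG pairs. For Meg3 only the first listed start was read. Over all 32851 regions of this length in the table, 8.68% held TGCCGC, 0.874% held it at least 2 times, 1.55% held TGACGTCA, and the median was 6 CG pairs. These are matches of letters in a window, and methylation and binding were not measured.

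Meg3, a maternally expressed noncoding RNA, was low on all 4 iPSC arrays. Its log2 intensity was 6.05 and 6.05 in young-origin iPSC, 6.74 and 5.99 in aged-origin iPSC, 9.14 in the Open Biosystems line and 10.22 in the Primogenix line. The groups were separated by a gap wider than the spread within either of them, although the ESC lines themselves differed by 1.08. The difference was -3.47 log2 (SE 0.28, limma adjusted p = 0.0016). In steady-state HSC the same probe set averaged 9.61 log2 (lowest 8.50, highest 10.41, 6 arrays), and in HSC from transplant recipients 5.47 (lowest 4.91, highest 7.02, 4 arrays).

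Most other probe sets of Meg3, and those of Rian, were also lower in iPSC. Meg3 had 11 probe sets on the array, and on 10 of them all 4 iPSC arrays were below both ESC arrays. When each probe set was tested on its own, 6 of the 9 bright enough to test were called lower in iPSC, with differences down to -3.95. Rian, the next noncoding RNA of the cluster, which hosts many small nucleolar RNAs, was below the brightness filter by the probe set that represents it. All 4 of its probe sets were lower on every iPSC array, and 3 of the 4 were called. One of these read 3.40 and 3.45 in young-origin iPSC, 3.39 and 3.04 in aged-origin iPSC, and 7.07 and 8.44 in the Open Biosystems and Primogenix lines. It differed by -4.44 log2 (SE 0.30, limma adjusted p = 0.000842 over 26194 probe sets). On each of the 3 called Rian probe sets, all 4 iPSC values lay below their arrays' 25th percentile. These probe sets passed the brightness filter through the ESC arrays, so the size of their differences is uncertain.

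For Mirg and Dlk1, also in this cluster, the differences were smaller, and their levels were low in ESC as well. Mirg, a host of microRNAs, was at 5.15 and 5.58 in young-origin iPSC, 5.80 and 4.98 in aged-origin iPSC, and 5.92 and 6.12 in the ESC lines. Its arrays did not overlap, but the difference of -0.65 (SE 0.21) did not pass the test (limma adjusted p = 0.287). Another Mirg probe set, too dim to test, differed by -0.75, with every iPSC array below both ESC lines. Dlk1, the paternally expressed protein-coding gene at the other end, differed by 0.07 (SE 0.14, limma adjusted p = 0.868), and its arrays overlapped at levels between 5.41 and 5.82. The 25th percentile of the 6 arrays lay between 4.74 and 4.85, so neither gene had much room to fall.

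Mcts2 and Zdbf2 are paternally expressed. Mcts2, a retrogene that lies within an intron of H13, was at 5.60 and 5.21 in young-origin iPSC, 5.38 and 5.56 in aged-origin iPSC, 9.38 in the Open Biosystems line and 8.37 in the Primogenix line. The difference was -3.44 log2 (SE 0.24, limma adjusted p = 0.000578). The iPSC level was nearer to that of steady-state HSC, with a mean of 4.58 (lowest 4.15, highest 5.04), than to that of either ESC line, and HSC from transplant recipients had a mean of 8.99. H13, the host gene, which codes for the signal peptide peptidase, differed in the positive direction on 5 of its 6 probe sets, with all iPSC arrays above both ESC lines on 3 of them. By its brightest probe set it was 8.74 and 8.69 in young-origin iPSC, 8.77 and 8.58 in aged-origin iPSC, 7.44 in Open Biosystems and 8.26 in Primogenix ESC, a difference of 0.85 (SE 0.20) that did not pass (limma adjusted p = 0.2). Another H13 probe set, which was too dim to test, was lower on every iPSC array, by 0.85 on average.

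**Figure D2:**
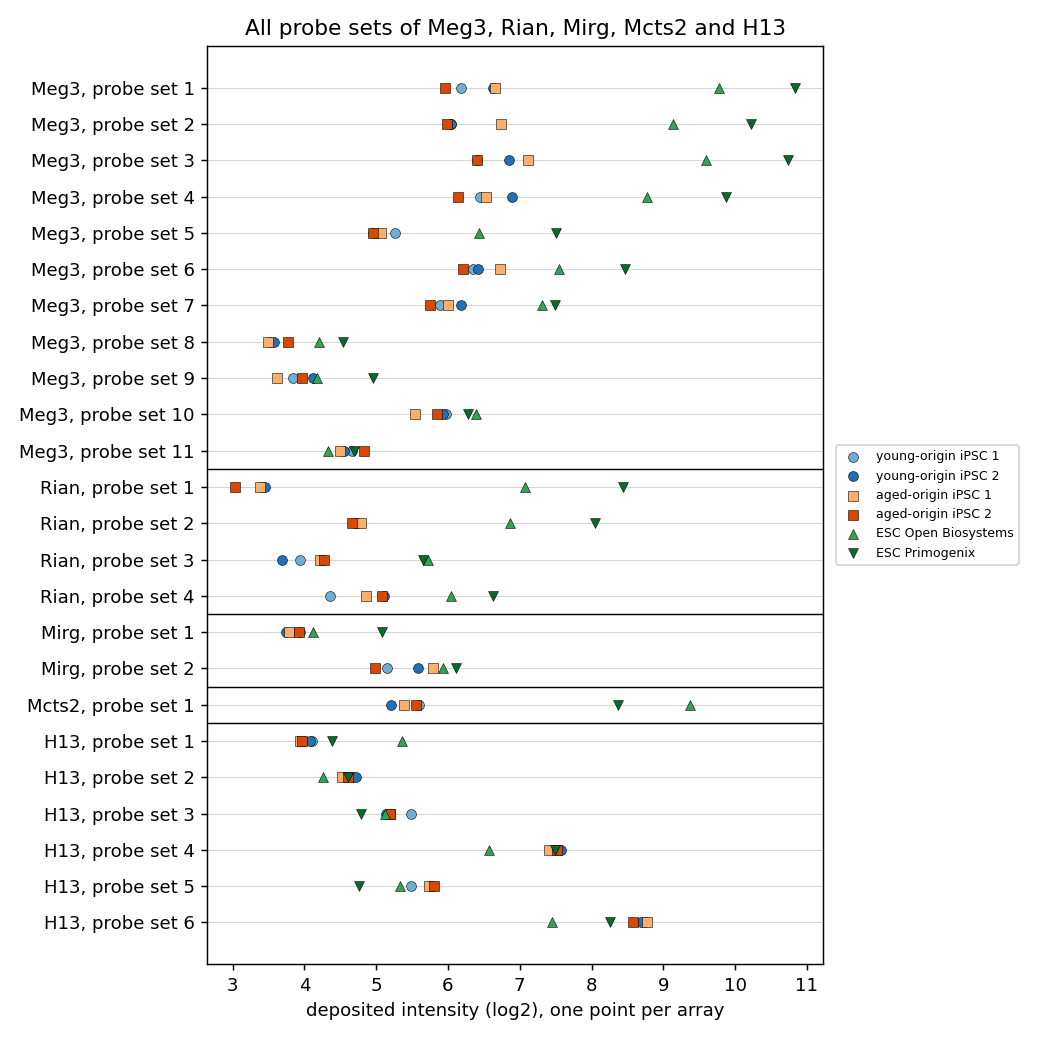
Log2 intensity (horizontal axis) on each of the 6 arrays for every probe set of Meg3 (11), Rian (4), Mirg (2), Mcts2 (1) and H13 (6), numbered within a gene from the most negative difference. In 10 of the 11 Meg3 probe sets, and in all of those of Rian, Mirg and Mcts2, both ESC lines (triangles) lie to the right of the 4 iPSC arrays, while those of H13 are mixed.

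Zdbf2, which codes for a zinc finger protein, was at 7.05 and 7.21 in young-origin iPSC, 7.33 and 7.16 in aged-origin iPSC, and 9.33 and 9.04 in the Open Biosystems and Primogenix lines. It differed by -2.00 log2 (SE 0.13, limma adjusted p = 0.000355), with a tight spread on both sides. Its mean was 5.83 in steady-state HSC and 4.32 in HSC from transplant recipients. The neighbouring Gpr1, which is also imprinted, differed by 0.00 (SE 0.21). This averaged -0.44 against the Open Biosystems line and 0.43 against the Primogenix line. Zdbf2 was not on the list of imprinted genes used here and was grouped with them after its value was seen.

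Among the remaining imprinted genes, more differences lay below 0 than above it. The list held 34 genes outside the Dlk1-Dio3 cluster, of which 31 were measured and 21 were bright enough to test. Of these 21, 1 (Mcts2) was called, 17 were below 0 and 4 above it, with a median of -0.11 log2 against 0.0016 for all genes tested. The median was -0.04 against the Open Biosystems line and -0.20 against the Primogenix line. Lists outside imprinting also lay mostly below 0, such as 18 of 22 genes of DNA methylation and chromatin. All 4 iPSC arrays were below both ESC arrays in 5 of the 21 (23.8%), where the share over all genes was 14.1%. Besides Mcts2 these were Grb10, an adaptor that restrains growth factor signalling (-0.60, SE 0.12, limma adjusted p = 0.14), Impact (-0.47, adjusted p = 0.214), Ppp1r9a (-0.40, adjusted p = 0.273) and Kcnq1ot1, the noncoding RNA of the Kcnq1 domain (-0.34, adjusted p = 0.287). Snrpn was the only gene of the list with all iPSC arrays higher, by 0.26 (limma adjusted p = 0.451). Igf2, Peg3, Mest, Cdkn1c and Gnas had overlapping arrays, with differences from -0.19 to 0.06.

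Germline genes lay mostly above 0, and 1 of them was called. Many genes of this kind are normally kept silent outside germ cells by promoter methylation. Of its 28 genes, 21 were bright enough to test, 19 of them were above 0, and the median was 0.28 log2. An unadjusted p under 0.05 was found for 10 of the 21, against 1738 of 13638 over all genes. In 11 of the 21 (52.4%) all 4 iPSC arrays were above both ESC arrays, where the share over all genes was 9.74%, but only Rhox5 was called. These counts describe the members that passed the brightness filter, which a gene could pass through the iPSC arrays alone. Of the 11, Mei1 and Asz1 were below the 25th percentile on both ESC arrays.

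Rhox5, an X-linked reproductive homeobox gene, was at 11.73 and 11.93 in young-origin iPSC, 11.43 and 11.92 in aged-origin iPSC, and 10.49 and 10.65 in the Open Biosystems and Primogenix lines. The difference was 1.18 log2 (SE 0.15, limma adjusted p = 0.0249). In steady-state HSC its mean was 4.46, so the iPSC were farther from blood than the ESC were. Rhox9 and Rhox6 of the same gene cluster lay in the same direction without passing. Rhox9 was between 8.39 and 8.96 on the iPSC arrays and at 7.56 and 8.14 in the ESC lines (0.87, SE 0.17, limma adjusted p = 0.136). Rhox6 was between 8.62 and 8.93 on the iPSC arrays and at 7.97 and 8.20 in the ESC lines (0.74, SE 0.13, limma adjusted p = 0.0943). Stra8, the retinoic acid-induced entry factor of meiosis, differed by 0.53 (adjusted p = 0.285), Sycp3 of the synaptonemal complex by 0.44 (adjusted p = 0.281) and Mei1 by 0.42 (adjusted p = 0.232).

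Rec114, a factor needed for the DNA breaks that start meiotic recombination, was the most increased of the called genes but was not on the germline list. It was at 7.46 and 7.77 in young-origin iPSC, 7.28 and 7.33 in aged-origin iPSC, and 6.12 and 6.14 in the ESC lines, a difference of 1.33 (SE 0.12, limma adjusted p = 0.00271). Its second probe set was higher on all iPSC arrays as well. The Rec114 mean was 4.25 in steady-state HSC and 5.83 in HSC from transplant recipients.

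The remaining called increases were smaller. Il1r2, the decoy receptor of interleukin 1, was between 6.64 and 6.81 on the iPSC arrays and at 5.43 and 5.74 in the Open Biosystems and Primogenix lines (1.15, SE 0.12, limma adjusted p = 0.00792). Its mean in steady-state HSC was 5.52, at the level of the ESC lines. In HSC from transplant recipients the Il1r2 mean was 4.20 (lowest 3.56, highest 5.50). Gm9112, Gm9564 and 2610035D17Rik, which have no established role, were higher in iPSC by 0.87, 0.83 and 0.79 (limma adjusted p = 0.0406, 0.0406 and 0.0291). Of these 3, 2610035D17Rik had a second probe set that differed by -0.02, and Gm9112 had 2 others that differed by 0.04 and 0.10.

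Of the called decreases outside the imprinted genes, Cyb5r1 came first, and it had the smallest p of all genes tested. Cyb5r1, a cytochrome b5 reductase, was at 8.36 and 8.24 in young-origin iPSC, 8.07 and 8.31 in aged-origin iPSC, and 10.20 and 10.26 in the ESC lines. It differed by -1.98 (SE 0.12, limma adjusted p = 0.00034), and its level in steady-state HSC, 8.13 on average (lowest 7.85, highest 8.46), was that of the iPSC. Mep1b, the beta subunit of the protease meprin, was between 4.12 and 4.62 on the iPSC arrays, below the 25th percentile on all 4, and at 5.79 and 6.03 in the ESC lines (-1.48, SE 0.13, limma adjusted p = 0.00192). Mep1b passed the brightness filter through the ESC arrays, so the size of its difference is uncertain. Pla2g4a, the cytosolic phospholipase A2, was between 5.07 and 5.25 in iPSC and at 6.45 and 6.07 in the ESC lines (-1.11, SE 0.13, limma adjusted p = 0.0161). HSC had far more of it, with a mean of 11.77 in the steady state and 10.05 in transplant recipients. Shisa4 was between 5.14 and 5.45 in iPSC and at 6.32 and 6.14 in the ESC lines (-0.97, SE 0.12, limma adjusted p = 0.0229).

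Cd68, a lysosomal protein of macrophages, was at 6.27 and 5.75 in young-origin iPSC, 5.70 and 5.34 in aged-origin iPSC, 7.12 in Open Biosystems and 7.76 in Primogenix ESC (-1.67, SE 0.21, limma adjusted p = 0.0229). Because Cd68 marks another cell type, 16 macrophage genes, chosen after its value was seen, were read on the same arrays. Of these, 8 were bright enough to test and Cd68 alone was called. Without Cd68 their summed intensity was 405 to 467 on the iPSC arrays, 398 in the Open Biosystems line and 554 in the Primogenix line. Lyz2, the macrophage lysozyme, was at 4.89 to 5.67 in iPSC, 5.51 in Open Biosystems and 6.83 in Primogenix ESC. Besides Cd68 and Lyz2, the genes Mpeg1, Cd14, C1qa, C1qb and Ctss were higher in the Primogenix line than on any iPSC array. C1qb and Ctss were too dim to test. The rest of the 16, among them Adgre1 and Csf1r, were not higher in that way. In the Open Biosystems line, Cd68 alone was above all iPSC arrays. The part of macrophage RNA in the Cd68 difference was not tested.

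The genes that differed were also read by their position. When the tested genes were placed in RefSeq order and read in windows of 25 consecutive genes, 46 genes in all differed by 0.75 log2 or more. Only 9 of 13086 windows held at least 4 of them, and all 9 lay on chromosome 1 around Cyb5r1. The window from Optc to Csrp1 held Cyb5r1, Rnpep, Shisa4 and Csrp1, and in 15 of its 25 genes the arrays did not overlap. Among the 25 genes on either side of Cyb5r1, 23 of 50 (46.0%) had arrays that did not overlap, where the share over all genes was 23.8%. Of these, 17 were higher in iPSC and 6 lower. A window on chromosome 11 and another on chromosome 14 each held 14 of 25 genes with separate arrays. Windows were ranked first by their genes at 0.75 log2, so others may hold more genes with separate arrays. The stretch around Cyb5r1 was chosen after the values were seen, and the windows overlap each other.

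Within this stretch, genes that differed stood among genes that did not. Csrp1, a LIM-domain protein of the actin cytoskeleton, was between 6.39 and 7.05 in iPSC and at 5.39 and 5.91 in the ESC lines (1.00, SE 0.20, limma adjusted p = 0.14). The transcription factor Sox13 was between 8.44 and 9.00 in iPSC and at 7.74 and 7.78 in the ESC lines (0.84, SE 0.15, limma adjusted p = 0.1). The aminopeptidase Rnpep was between 9.21 and 9.58 in iPSC and at 8.46 and 8.79 in the ESC lines (0.78, SE 0.14, limma adjusted p = 0.1). Kdm5b, Adipor1, Snrpe and Ipo9 in the same stretch had overlapping arrays. Btg2, an antiproliferative gene, had a probe set that was lower in iPSC by 1.80 (SE 0.21, limma adjusted p = 0.018 when each probe set was tested) and another that was lower by 0.36. With Cyb5r1 and these 50 neighbours left out of the fit, 12 genes were called.

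**Figure D3:**
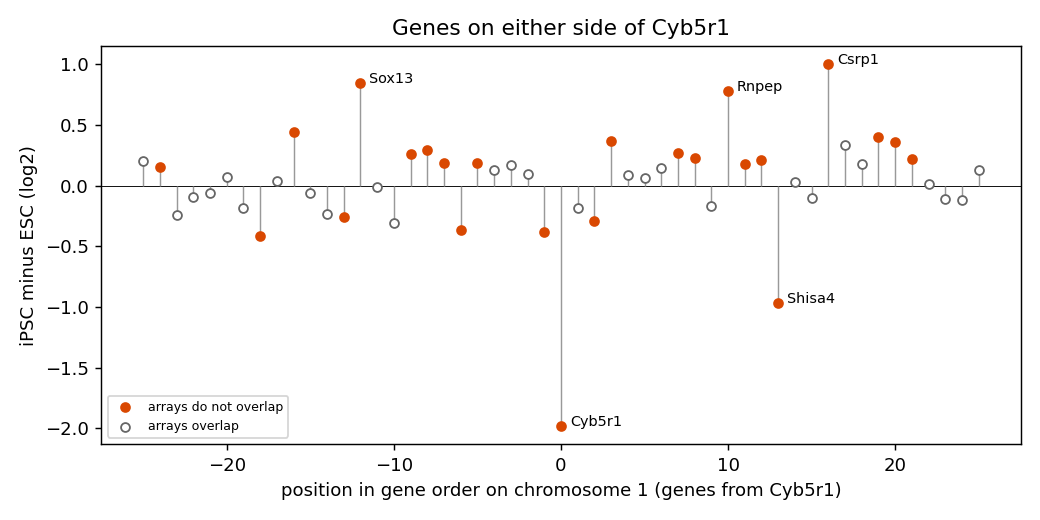
Difference between iPSC and ESC (vertical axis, log2) for Cyb5r1 and the 25 tested genes on either side of it in gene order on chromosome 1 (horizontal axis, number of genes from Cyb5r1). Filled points are genes whose iPSC and ESC arrays do not overlap, and the 5 labelled genes differ by 0.75 log2 or more, with Cyb5r1 and Shisa4 lower and Sox13, Rnpep and Csrp1 higher in iPSC.

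The core of the pluripotency network did not differ beyond the test. Of 33 pluripotency genes tested, 0 were called, the median was -0.05 log2, and the differences ran from -0.53 to 0.25. An unadjusted p under 0.05 was found for 7 of the 33, against 1738 of 13638 over all genes. Pou5f1 was between 10.73 and 10.96 in iPSC and at 11.04 and 10.95 in the ESC lines (-0.12, SE 0.11). Sox2 was between 11.20 and 11.64 in iPSC and at 11.48 and 11.66 in the ESC lines (-0.09, SE 0.14). Both ranges overlapped. Nanog was at 9.02 and 9.63 in young-origin iPSC, 9.09 and 9.01 in aged-origin iPSC, and 9.54 and 9.74 in the ESC lines (-0.45, SE 0.17, limma adjusted p = 0.318).

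Among pluripotency genes, those with all iPSC arrays lower were 7 of 33 (21.2%, against 14.1% over all genes). They included both methylcytosine dioxygenases of the list, while Tet3, on the DNA methylation and chromatin list, differed by 0.16 with overlapping arrays. Tet1 was between 10.14 and 10.37 in iPSC and at 10.69 and 10.75 in the ESC lines (-0.51, SE 0.11, limma adjusted p = 0.178). Tet2 was between 8.32 and 8.74 in iPSC and at 9.17 and 8.96 in the ESC lines (-0.53, SE 0.13, limma adjusted p = 0.221). The others were Tfcp2l1 (-0.44), Klf4 (-0.32), Lin28a (-0.30), Klf2 (-0.29) and Dppa5a (-0.07). Dppa3, a maternal factor that guards imprints in the early embryo, differed by 0.22 (SE 0.16) and its arrays overlapped.

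Traces of the blood origin were looked for in 40 blood genes. Of these, 38 were measured and 24 were bright enough to test, 0 were called, and the median was 0.12 log2. An unadjusted p under 0.05 was found for 4 of the 24, against 1738 of 13638 over all genes. Gfi1b, a repressor of the erythroid and platelet lineages, was between 6.09 and 6.40 in iPSC and at 5.93 and 5.89 in the ESC lines (0.39, SE 0.11, limma adjusted p = 0.256). Rac2, the blood-specific Rac GTPase, was between 6.21 and 6.33 in iPSC and at 5.94 and 5.90 in the ESC lines (0.33, SE 0.11, limma adjusted p = 0.28). Procr, a surface marker of HSC, was lower by 0.32 (limma adjusted p = 0.276). Kit, Myb, Ikzf1 and Spi1 had overlapping arrays.

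Most fibroblast and feeder genes lay below 0 without passing the test. Of 29 tested, 0 were called, 24 were below 0 and the median was -0.19 log2. All iPSC arrays were lower in 5 (17.2%, against 14.1% over all genes). An unadjusted p under 0.05 was found for 7 of the 29, against 1738 of 13638 over all genes. Col5a2, a fibrillar collagen, was between 5.73 and 6.32 in iPSC and at 6.92 and 7.18 in the ESC lines (-0.96, SE 0.16, limma adjusted p = 0.0907). Lox, which crosslinks collagen, was between 4.54 and 4.86 in iPSC and at 5.12 and 5.59 in the ESC lines (-0.65, SE 0.15, limma adjusted p = 0.2). Of the 29 genes, 18 and 10 were below both ESC lines on the young-origin arrays and 15 and 22 on the aged-origin arrays. The part of feeder RNA in the called differences was not tested.

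**Figure D4:**
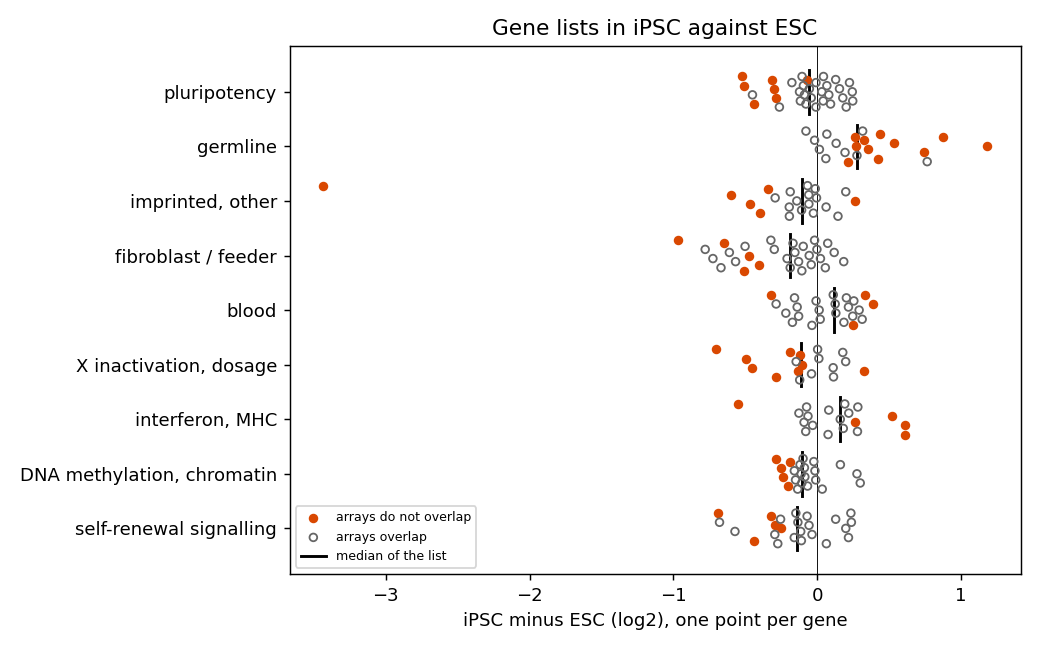
Difference between iPSC and ESC (horizontal axis, log2) of every tested gene in 9 lists, with 1 point per gene, filled where the iPSC and ESC arrays do not overlap, and a bar at the median of each list. The germline list lies to the right of 0 (median 0.28), the fibroblast and feeder list to the left (median -0.19), and Mcts2 is the point farthest to the left.

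The X-linked list and the interferon list held separations that the test did not call. Of 18 genes of X inactivation and X dosage tested, 0 were called, and 8 (44.4%, against 14.1% over all genes) had all iPSC arrays lower. Among these 8, Hcfc1, Hprt and Atrx differed by only -0.11, -0.12 and -0.13. In 4 of the 18 the unadjusted p was under 0.05, against 1738 of 13638 over all genes. Over all 411 tested genes of the X, 20.7% had arrays that did not overlap, against 23.8% over all genes. Xist, the RNA that coats the inactive X, was at 8.24 and 7.75 in young-origin iPSC, 7.66 and 8.14 in aged-origin iPSC, and 8.73 and 8.56 in the ESC lines (-0.70, SE 0.17, limma adjusted p = 0.221). Other Xist probe sets, too dim to test, differed by -0.57 and -0.0006. Of 19 interferon and antigen presentation genes tested, 0 were called, and 4 had an unadjusted p under 0.05, against 1738 of 13638 over all genes. The median of these 19 was 0.16 log2, which was 0.32 against the Open Biosystems line and -0.0007 against the Primogenix line. Bst2, the antiviral protein tetherin, was between 8.05 and 8.17 in iPSC and at 7.51 and 7.50 in the ESC lines (0.61, SE 0.10, limma adjusted p = 0.0907). B2m, the light chain of MHC class I, went the other way (-0.55, SE 0.14, limma adjusted p = 0.221).

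No gene of the remaining lists was called by the probe set that represents it. Of 22 genes of DNA methylation and chromatin tested, 0 were called and 0 had an unadjusted p under 0.05, with a median of -0.10 log2. Dnmt3l, the cofactor of de novo methylation, differed by -0.24 and Uhrf1, which guides maintenance methylation, by -0.28 (limma adjusted p = 0.414 for each). Of 24 genes of self-renewal signalling tested, 0 were called, with a median of -0.14. An unadjusted p under 0.05 was found for 7 of the 24, against 1738 of 13638 over all genes. Axin2, a target of Wnt signalling, differed by -0.68 and Id1 by -0.69 (limma adjusted p = 0.256 and 0.31). Both differed more from the Open Biosystems line (-1.05 and -1.25) than from the Primogenix line (-0.31 and -0.14). The extraembryonic list had 0 of 16 called and a median of 0.11, the germ layer list 0 of 11 and 0.01, and the primed-state list 0 of 12 and -0.03. The epithelial list had 0 of 15 called and a median of -0.11, the p53 and cell cycle list 0 of 19 and -0.08 (Pmaip1 -0.72, limma adjusted p = 0.275), and the glycolysis and hypoxia list 0 of 22 and -0.04. Only 2 of the 16 genes on the 2-cell embryo list were bright enough to test, and neither was called. Mycn, on the p53 and cell cycle list, differed by -0.21 by the probe set that represents it. Another of its 3 probe sets was higher in iPSC by 1.28 (SE 0.14, limma adjusted p = 0.0109 when each probe set was tested). The remaining Mycn probe set differed by -0.10.

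The ESC lines were then taken one at a time, each set against the same 4 iPSC arrays. Without the Primogenix array 10 genes were called, and without the Open Biosystems array 15. The lone ESC array is assumed in these fits to vary like the iPSC pairs. The genes called against each line were 6, which is 60.0% of the first set and 40.0% of the second: Meg3, Mcts2, Zdbf2, Cyb5r1, Rec114 and AI662270. Meg3 differed by -2.93 from Open Biosystems and by -4.01 from Primogenix, and Mcts2 by -3.94 and -2.94. The sets share the iPSC arrays.

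AI662270, a transcript without an established role, was between 10.06 and 10.53 in iPSC and at 8.40 in Open Biosystems and 6.34 in Primogenix ESC. It differed by 2.99 (SE 0.44) from both lines together and missed the threshold there (limma adjusted p = 0.0539). Its ESC arrays differed by 2.06, the widest gap in that direction among the genes tested. Against each line alone it passed (limma adjusted p = 0.0146 for Open Biosystems and 0.000209 for Primogenix). Its level in young and aged steady-state HSC was 12.04 and 12.06, and in HSC from recipients of young and aged marrow 10.44 and 10.46.

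Other genes stood apart in 1 line only. Mid1, an X-linked ubiquitin ligase, was at 11.54 in Primogenix and 9.11 in Open Biosystems ESC, the widest gap in the other direction, and also varied among the iPSC (7.68 and 7.06 in young-origin, 8.36 and 9.39 in aged-origin). Id1, a target of BMP signalling, was at 7.74 in Open Biosystems and 6.63 in Primogenix ESC, against 6.45 to 6.54 in iPSC. Slc15a2, a peptide transporter, was at 7.07 in Open Biosystems and 5.42 in Primogenix ESC, against 7.00 to 7.38 in iPSC. The Open Biosystems array also stood out on chromosome 8. Its median deviation from the mean of the 6 arrays was 0.09 log2 over the 716 tested genes of chromosome 8 and between -0.05 and 0.01 over its other chromosomes. Gm9564 and Bst2 lie on chromosome 8 and were both lower in that line than in iPSC, as they were in the Primogenix line.

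**Figure D5:**
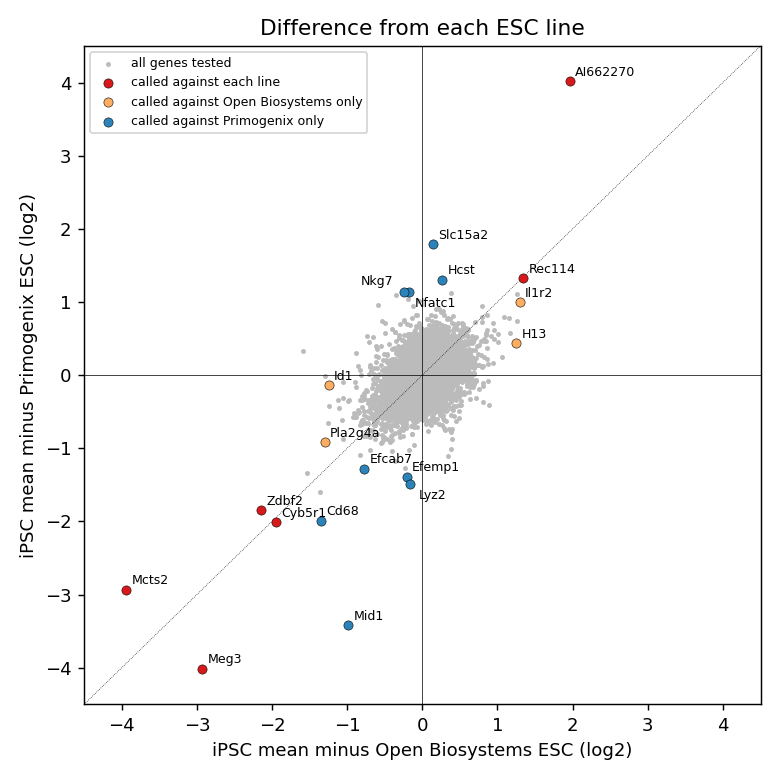
Difference of the iPSC mean from the Open Biosystems ESC array (horizontal axis, log2) and from the Primogenix ESC array (vertical axis, log2) for all 13638 genes tested, with genes coloured by the line they were called against. The 6 genes called against each line are Meg3, Mcts2, Zdbf2 and Cyb5r1 at the lower left and Rec114 and AI662270 at the upper right, while Mid1, Slc15a2 and Id1 lie close to an axis or far from the dotted line of equal difference.

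The lower levels of Meg3, Mcts2, Zdbf2 and Cyb5r1 were called in both iPSC origins. Young-origin iPSC against ESC gave 12 called genes (0.088%), 6 in each direction (0.044%), and aged-origin iPSC gave 9 (0.066%), 2 higher (0.0147%) and 7 lower (0.0513%). These comparisons share the ESC arrays. Meg3 differed by -3.63 (SE 0.33) in young-origin and -3.31 (SE 0.33) in aged-origin iPSC, Mcts2 by -3.47 and -3.41, Zdbf2 by -2.06 and -1.94, and Cyb5r1 by -1.93 and -2.04. Rec114 differed by 1.49 (SE 0.14) in young-origin and 1.18 (SE 0.14) in aged-origin iPSC. Rhox5 passed in young-origin iPSC (1.26, limma adjusted p = 0.0439) and not in aged-origin iPSC (1.10, adjusted p = 0.0924), and Cd68 passed in aged-origin (-1.92, adjusted p = 0.0352) and not in young-origin iPSC (-1.43, adjusted p = 0.118). The direct test of aged against young origin called 0 genes by limma, with 677 at an unadjusted p under 0.05, so no gene was shown to differ by origin.

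How firmly a gene was called varied. Meg3, Mcts2, Zdbf2 and Cyb5r1 stayed called in all alternative analyses in which they were tested, and Rec114 in 18 of 19. Mep1b stayed called in the 16 in which it was tested, but was too dim to test without either ESC line or with the filter at the 50th percentile, so its call was not checked there. The other 8 called genes lost the call in at least 4 alternatives. With an array left out in turn the count ran from 7 to 15, with 7 when the first aged-origin array was left out, 8 without the second and 8 without the first young-origin array. The calls of 2610035D17Rik, Gm9112 and Gm9564 were lost whichever array was left out. Shisa4 was lost without any array but the second young-origin one, Pla2g4a without any but the Primogenix line, and Rhox5 without any but the first aged-origin one (limma adjusted p up to 0.186, 0.103 and 0.186). Cd68 was lost without the Primogenix line, either aged-origin array or the second young-origin array (up to 0.167), and Il1r2 without the Open Biosystems line or either aged-origin array (up to 0.0675).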

How the data were processed

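The intensity values deposited by the authors, a table of 45101 probe sets by 16 arrays with values from 4.53 to 31493, were converted to log2 with no pseudocount. Their summarisation and normalisation by the authors was not stated in any source used here. The 64 control probe sets were left out. A probe table gave 1 gene symbol for 34945 probe sets, several for 932, and did not list 9160. Each gene was represented by its probe set with the highest mean over all arrays, and 9 genes on Y were left aside, which left 18184 genes, of which 18023 matched RefSeq. Genes under the 25th percentile of the mean over the 6 cultured arrays were dropped.

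limma 3.58.1 in R 4.3.3 (lmFit, eBayes) fitted 3 groups with 3 residual degrees of freedom. Calls needed a Benjamini-Hochberg adjusted p under 0.05 over 13638 genes. The number of arrays limits the precision. Simulated arrays of these 13638 genes for iPSC against ESC held 200 changed genes per set and independent normal noise. On them the test recovered 76.4% of changes of 2-fold and 98.7% of those of 4-fold, and 2.98% of calls were false. The data gave 14 calls, so the adjusted threshold was stricter there, and these rates do not carry over to the data.

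The text names up to 12 called genes per direction, 3 per list by smallest p, a set of identity genes and the widest line difference in each direction. Genes outside this rule (among them Rnpep, Sox13, Csrp1, Btg2, H13, Gpr1, Rhox6, Rhox9, Stra8, Sycp3, Lyz2, Slc15a2, Asz1, Mei1, and list members given with overlapping arrays or by direction alone) were chosen after their values were seen. Members and lists were chosen with earlier results of these data known. Lists are described by counts, with no set test.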

Additional observations from a re-analysis of the deposited data

Results flagged for a closer look

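In 8 of 80 named genes, 1 of the 4 iPSC arrays stood far from the other 3 on the log2 scale by Dixon's criterion. Chance alone gives about 5% per group. The first aged-origin array was high for Meg3 (6.74, next 6.05) and Sox13 (9.00, next 8.48) and low for Tfcp2l1 (9.86, next 10.13). The second aged-origin array was low for Rhox6 (8.62, next 8.88) and Prdm14 (7.30, next 7.87). The first young-origin array was high for 2610035D17Rik (5.78, next 5.71) and Tet1 (10.37, next 10.17), and the second young-origin array was high for Nanog (9.63, next 9.09), inside the range of the ESC lines. For Meg3 the high array was still below both ESC lines (9.14 and 10.22).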

How the results depend on the processing

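Against 14 calls for iPSC minus ESC, there were 32 with a filter at the 50th percentile (7 of the 14 among them), 66 with an intensity trend and robust prior (14 among them), 8 with all 16 arrays in one fit, 40 with a pseudocount of 64, and 23 with every probe set tested on its own, an alternative chosen after seeing the data. For young-origin iPSC, against 12, there were 6 after quantile normalization, 40 with the trend and 7 with all 16 arrays. For aged-origin iPSC, against 9, there were 14 with probe sets averaged per gene, 26 with the trend, 5 with all 16 arrays and 15 with every probe set. Aged against young origin went from 0 to 1 with the trend. Leaving out each array in turn gave 7 to 15 calls for iPSC minus ESC, 6 to 9 for young origin (6 and 7 without the first and second young-origin array) and 2 to 9 for aged origin (2 and 3 without the first and second aged-origin array, 5 without the Primogenix line). The causes were not tested. With the replicate number as a block within iPSC the counts were 10, 9, 7 and 0. Replicate numbers did not pair the samples, as deviations of same-numbered arrays correlated at -0.05. Over 1471 values of the 80 named genes under the alternatives, 0 changed direction while called, 63 lost the call and 32 gained it.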
